A study of Mus musculus with 6 samples.

Results

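Reported targets of the microRNA miR-338-3p were followed in mouse MIN6B1 cells after silencing of the circular RNA circHIPK3. The targets were the 9 genes Nrp1, Smo, Ptk2, Mtdh, Sox4, Runx2, Zeb2, Met and Adam17, out of 20659 genes with a symbol on the array, and every non-control probe annotated to them was taken, 14 of 39429 probes. The rule itself used the annotated symbol and no measured value, though the genes were proposed with earlier results of these data known. The arrays came from 2 groups of 3 samples each. The circHIPK3 siRNA group received a small interfering RNA (siRNA) directed at circHIPK3. The siGFP group, the control, received an siRNA directed at green fluorescent protein. Both were carried by the same lipid reagent, and total RNA was taken 48 h later. MIN6B1 is a cultured line derived from a mouse insulinoma that still secretes insulin and stands in for pancreatic beta cells. Nothing in the labels says that the replicates were grown as separate cultures, so p-values here reflect the spread among these arrays alone, and that spread may be technical.

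A microRNA pairs through its seed, the bases near its 5′ end, with complementary sites that lie mostly in the 3′ untranslated region of an mRNA, and the paired mRNA is then translated less and decays faster. A circular RNA made from the gene Hipk3 was proposed to hold miR-338-3p. This gives the question asked here, namely whether reported targets of the microRNA differed in level when that circular RNA was silenced. In beta cells miR-338-3p has been linked to the adaptation of beta cell mass in pregnancy and obesity. It is cut from a hairpin within the gene Aatk, which encodes a kinase expressed in neurons. The genes were taken by symbol as reported targets and not by sequence, and the microRNA sequences are printed for reference. They are those of RefSeq on build GRCm38.p6, minus strand, at chr11:120014781-120014802 for the 3p arm and chr11:120014816-120014837 for the 5p arm, with the seed (bases 2 to 8) in capitals. In the hairpin, at chr11:120014765-120014862, capitals mark both mature arms.
mmu-miR-338-3p: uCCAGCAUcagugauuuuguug
mmu-miR-338-5p: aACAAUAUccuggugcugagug
Mir338 hairpin: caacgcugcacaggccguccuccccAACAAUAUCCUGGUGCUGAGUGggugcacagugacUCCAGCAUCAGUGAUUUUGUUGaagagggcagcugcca
The seeds of the 2 arms differ, and none of the other mature mouse microRNAs in the table had the seed of either. The DNA sequence complementary to the 3p seed is ATGCTGG. Transcript sequences of the 9 genes were not used here, so the sites themselves were not analysed, and the arrays do not report the microRNA.

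None of the 11 tested probes passed the limma threshold of an adjusted p of 0.05, where 1.32% of all 31362 tested probes passed, 0.58% higher and 0.743% lower after circHIPK3 siRNA. None of the 7 genes with a tested probe rose or fell at that threshold, and Nrp1 and Runx2 were not tested. At an unadjusted p under 0.05 there were 3 probes, which were both Zeb2 probes and the dimmer Smo probe, against 21% of all tested probes. All 3 had higher signal on each circHIPK3 siRNA array than on any siGFP array. Groups without overlap were found for 25.9% of all tested probes. Higher values without overlap were found for 16.2% of all tested probes and lower ones for 9.74%, and no tested target probe had lower ones. The changes ran between -0.04 and 0.95 on the log2 scale, with 9 positive and 2 negative, where 63% of all tested probes were positive. The median was 0.11 for the 11 probes and 0.08 for all tested probes. Dividing each array by its median in place of its 75th percentile shifted every change by -0.10, so positions are also given relative to the median of all probes, above which 8 of the 11 lay. These figures cover only probes that passed the signal filter, which 3 of the 14 did not, and 2 probes of 1 gene share their target and are not replicates.

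Across arrays, the 75th percentile of processed signal ranged over 2939 to 3669 units, and 80.7% to 83.4% of probes on circHIPK3 siRNA arrays and 77.6% to 79.7% on siGFP arrays stood well above background. The file headers give a single scan to circHIPK3 siRNA replicate 1 and all 3 siGFP arrays, and another to circHIPK3 siRNA replicates 2 and 3. Positions 3 and 4 occur in both scans, so the scans are taken here as 2 slides. Hipk3, the host gene of the targeted circle, changed by -0.17 ± 0.14 and -0.31 ± 0.12 (SE) at its 2 probes, with adjusted p = 0.505 and 0.212. Those probes are not placed relative to the circular exon and check neither the circle's level nor the labels. All 10 beta cell markers were above background on all 6 arrays. Where values are given below, signal is log2 relative to the array's 75th percentile, changes are circHIPK3 siRNA minus siGFP, given with the standard error (SE) and 95% interval of the limma fit, and the number of arrays limits the precision.

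**Figure D1:**
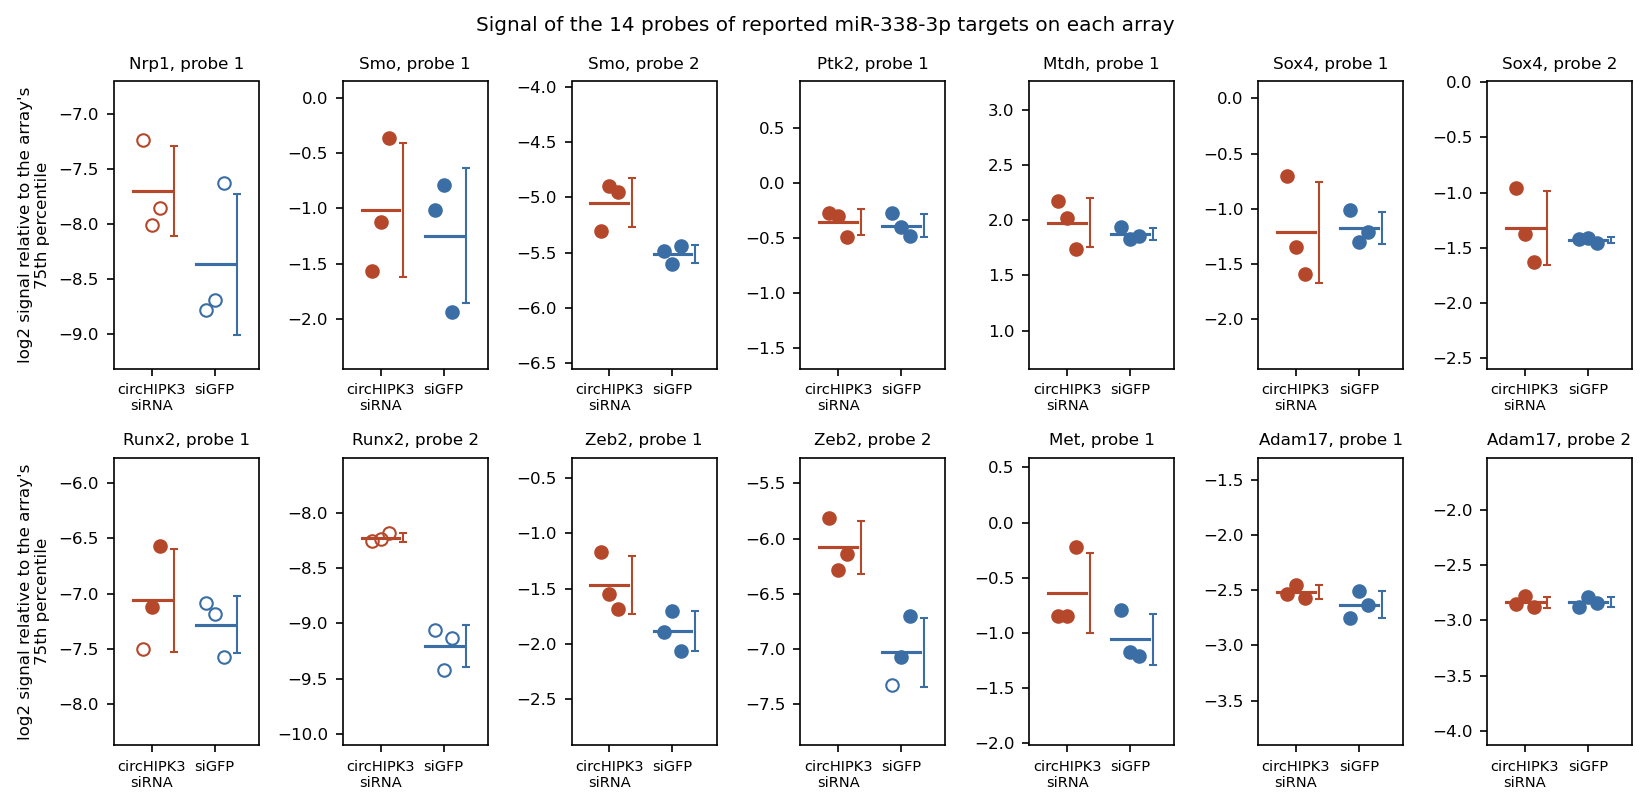
Log2 signal relative to the array's 75th percentile for each of the 14 probes, with 1 point per array, a line at the group mean and a bar of 1 SD (n = 3 per group). Filled points were well above background and open points were not, and each panel spans the same 2.6 log2 units. The circHIPK3 siRNA points lie above all siGFP points for both Zeb2 probes and Smo probe 2, and also for Runx2 probe 2, which was not well above background on any array.

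Zeb2 had positive changes at both probes, and neither passed. It encodes a zinc finger repressor that silences E-cadherin and other epithelial genes and also acts in neural crest and neurons. The brighter probe had -1.17, -1.55 and -1.68 in circHIPK3 siRNA replicates 1 to 3, against -1.89, -1.70 and -2.06 in siGFP replicates 1 to 3. The lowest circHIPK3 siRNA array lay just above the highest siGFP array. The change was 0.42 ± 0.16 (SE), 1.34-fold, with an interval of 0.05 to 0.80 and an adjusted p of 0.201. The dimmer probe had -5.82, -6.28 and -6.14 after circHIPK3 siRNA, against -7.32, -7.07 and -6.70 after siGFP. It was above background on all 3 circHIPK3 siRNA arrays and on 2 of 3 siGFP arrays, replicate 1 being the exception, so it entered the test only through the group where it was higher and had no value under the filter that requires all 6 arrays. Its fitted change was 0.95 ± 0.19 (SE), 1.93-fold, with an interval of 0.51 to 1.39 and an adjusted p of 0.0597.

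Relative to the median of all probes, the 2 Zeb2 changes were 0.34 and 0.87. The dimmer probe lay among the dimmest 7840 tested probes, whose median change was 0.27. The brighter one lay among 7840 probes above the median in signal, whose median change was 0.02. Each probe alone gave a two-sided exact permutation p of 0.10, the smallest that 3 against 3 arrays allow. The dimmer probe's change was larger than the brighter one's by 0.53, but the per-array differences between the probes overlapped between groups (exact permutation p = 0.30). Normexp background correction was always followed by quantile normalization. With it the change of the dimmer probe was 0.15 and that of the brighter 0.34, so the order of the probes turned. With quantile normalization alone the changes were 0.65 for the dimmer and 0.37 for the brighter. On the first slide alone, circHIPK3 siRNA replicate 1 against the 3 siGFP arrays gave 0.72 and 1.22 for the brighter and dimmer probe, a fit that assumes the lone array varies like the siGFP arrays. Both probes kept their direction under all alternatives in which they were tested, between 0.27 and 0.72 for the brighter and between 0.15 and 1.22 for the dimmer, and passed in none.

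Smo encodes the membrane protein that passes the hedgehog signal into the cell once the receptor Patched has bound its ligand. Its probes differed in how much the arrays scattered. The dimmer probe had -5.30, -4.90 and -4.95 after circHIPK3 siRNA, against -5.48, -5.60 and -5.44 after siGFP. The groups did not overlap, and the change was 0.46 ± 0.13 (SE), 1.38-fold, with an interval of 0.15 to 0.77 and an adjusted p of 0.123. This probe too lay among the dimmest 7840, and its change was 0.25 with quantile normalization and 0.099 with normexp. Leaving out circHIPK3 siRNA replicate 1 puts each group on a slide of its own, and the probe then passed at 0.59 ± 0.11 (SE, limma adjusted p = 0.0385), and on the first slide alone the change was 0.21.

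The brighter Smo probe had -1.57, -1.12 and -0.36 after circHIPK3 siRNA, against -1.02, -0.79 and -1.94 after siGFP. Both groups spanned more than a log2 unit and overlapped, with siGFP replicate 3 the lowest and circHIPK3 siRNA replicate 3 the highest. The change was 0.23 ± 0.37 (SE), the widest error of the set, with an interval of -0.64 to 1.102. It was -0.12 without siGFP replicate 3, -0.10 without circHIPK3 siRNA replicate 3 and -0.32 on the first slide alone. The Pearson correlation between the Smo probes over the 6 arrays was 0.33, against 0.73 for Zeb2, 0.74 for Adam17 and 0.89 for Sox4. These correlations describe arrays that share labelling and scan and include the group difference.

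Met, the receptor tyrosine kinase for hepatocyte growth factor, had a single probe. It read -0.84, -0.85 and -0.22 after circHIPK3 siRNA, against -0.79, -1.17 and -1.21 after siGFP. Replicate 3 of circHIPK3 siRNA was the highest array and siGFP replicate 1 lay above the other 2 circHIPK3 siRNA arrays, so the groups overlapped. The change was 0.42 ± 0.20 (SE), with an interval of -0.05 to 0.89, an adjusted p of 0.277 and an exact permutation p of 0.30. It was 0.21 without circHIPK3 siRNA replicate 3, 0.55 without siGFP replicate 1 and 0.21 with slide as a fixed block. A random slide block gave 0.40.

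Sox4, a transcription factor of the SoxC group that acts in islet development and in the secretory function of beta cells, had probes that followed each other. The brighter probe had -0.70, -1.35 and -1.59 after circHIPK3 siRNA, against -1.01, -1.30 and -1.21 after siGFP. The dimmer had -0.96, -1.38 and -1.63 after circHIPK3 siRNA, against -1.42, -1.41 and -1.46 after siGFP. At both probes circHIPK3 siRNA replicate 1 was the highest array and replicate 3 the lowest, with every siGFP array between them. The changes were -0.04 ± 0.22 and 0.11 ± 0.17 (SE), with intervals of -0.56 to 0.48 and -0.28 to 0.50. On the first slide alone, where replicate 1 stands for the group, both were 0.47, and neither passed.

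Ptk2, Mtdh and Adam17 had changes of at most 0.11. Ptk2 encodes focal adhesion kinase, which relays integrin signals. Its signal lay between -0.49 and -0.28 after circHIPK3 siRNA and between -0.49 and -0.27 after siGFP, a change of 0.03 ± 0.11 (SE) with an interval of -0.22 to 0.29. Mtdh encodes an endoplasmic reticulum and nuclear protein, also known as astrocyte elevated gene 1, that binds the nuclease Snd1. It lay between 1.74 and 2.17 after circHIPK3 siRNA and between 1.83 and 1.94 after siGFP, a change of 0.10 ± 0.13 (SE) with an interval of -0.20 to 0.40. The groups overlapped for both genes.

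Adam17 encodes the membrane protease that releases tumour necrosis factor and ligands of the epidermal growth factor receptor from the cell surface. Its brighter probe lay between -2.57 and -2.45 after circHIPK3 siRNA and between -2.75 and -2.51 after siGFP, and its second between -2.88 and -2.78 after circHIPK3 siRNA and between -2.88 and -2.79 after siGFP. The changes were 0.11 ± 0.10 and -0.0020 ± 0.09 (SE), with intervals of -0.13 to 0.36 and -0.21 to 0.21. The difference between the Adam17 probes, second minus brighter, was lower on every circHIPK3 siRNA array than on any siGFP array, by 0.12 on average (exact permutation p = 0.10). With normexp these differences overlapped between groups. Of the 4 probe pairs compared, this was the only one without overlap. A share over all probe pairs was not computed, and 25.9% of all single tested probes had groups without overlap.

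**Figure D2:**
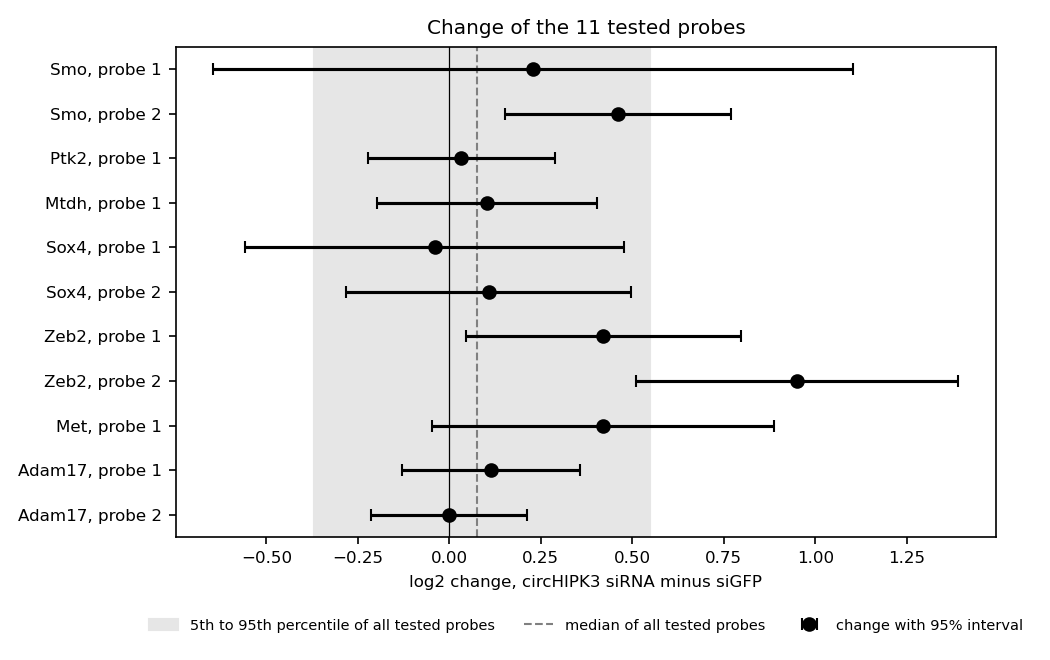
Log2 change, circHIPK3 siRNA minus siGFP, of the 11 tested probes, with points at the limma estimate and bars for the 95% interval. The grey band spans the 5th to 95th percentile of all tested probes, -0.37 to 0.55, and the dashed line is their median of 0.08. Zeb2 probe 2 at 0.95 is the only point to the right of the band, and none lies to its left.

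Nrp1 and Runx2 were not tested, because none of their 3 probes was well above background on all arrays of a group. Nrp1 encodes neuropilin 1, a co-receptor for class 3 semaphorins and vascular endothelial growth factor. Its probe was not well above background on any array, with processed signals of 23.7, 14.2 and 14.8 units after circHIPK3 siRNA and 6.71, 8.88 and 17.1 units after siGFP. Runx2 encodes the Runt-domain transcription factor of bone formation. Its brighter probe was above background on circHIPK3 siRNA replicates 2 and 3 and on no siGFP array, at 19.9, 26.4 and 36.1 units after circHIPK3 siRNA and 21.7, 25.3 and 17.7 units after siGFP. The groups overlapped, and the mean of the circHIPK3 siRNA arrays did not exceed the siGFP background bound, so no fold is given. Runx2 probe 2 was not well above background on any of the 6 arrays. It read 11.7, 12.2 and 11.8 units after circHIPK3 siRNA and 5.51, 5.34 and 6.05 units after siGFP.

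Marker genes of other cell types were compared beside these values, since Zeb2, Runx2 and Nrp1 are also used by mesenchymal cells, leukocytes or endothelium. Signal of a marker gene does not show that such cells were present in this cultured line. Summed over each marker list, in multiples of the array's 75th percentile, the fibroblast and mesenchymal markers gave 0.350 to 0.405 after circHIPK3 siRNA and 0.379 to 0.413 after siGFP. Of these 8 markers, 5 were above background on all 6 arrays and Pdgfra on none. The 5 endothelial markers gave 1.85 to 2.21 after circHIPK3 siRNA and 1.66 to 2.13 after siGFP, with 2 of them above background on all arrays and Cdh5 and Emcn on none. The 5 measured leukocyte markers, all above background on all arrays, gave 4.46 to 6.55 after circHIPK3 siRNA and 5.11 to 5.77 after siGFP. For the 6 markers of other islet endocrine cells the sums were 11.6 to 21.1 after circHIPK3 siRNA and 17.0 to 30.6 after siGFP. The sums overlapped between groups for all 4 lists and no marker passed limma's test, but the sums rest mostly on the brightest markers. For the marker counts without overlap that follow, the shares over all tested probes were 16.2% higher and 9.74% lower. Of the 5 tested fibroblast and mesenchymal markers, 2 were higher without overlap and 1 was lower. The matrix gene Dcn gave 0.58 ± 0.19 (SE, adjusted p = 0.161), with -4.75, -4.91 and -4.22 after circHIPK3 siRNA against -5.40, -5.18 and -5.04 after siGFP. The collagen gene Col3a1 gave 0.52 ± 0.15 (SE, adjusted p = 0.118), with -5.93, -5.75 and -5.49 after circHIPK3 siRNA against -6.11, -6.44 and -6.19 after siGFP. Both had the direction of Zeb2, while Thy1, a surface glycoprotein gene, gave -0.28 ± 0.11 (SE, limma adjusted p = 0.201). The brighter collagen genes Col1a1 and Col1a2 gave -0.20 and 0.05, with overlapping groups. Col3a1 was dimmer than Smo probe 2, which lay among the dimmest 7840 tested probes, whose median change was 0.27. Among tested markers of other islet endocrine cells, the hormone genes Sst and Ghrl were higher without overlap, at 0.30 and 0.23. The others overlapped, with Ppy at 0.52, Gcg, the brightest of the list, at -0.59 and Irx2 at -0.25. Among beta cell markers, Slc30a8 and Ins1 were lower without overlap, at -0.33 and -0.12. No tested endothelial or leukocyte marker had groups without overlap. Their part in the Zeb2 and Smo values was not tested. In cultured cells measured in bulk, a change in the number of cells of a type and a change in RNA per cell cannot be told apart.

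Genes that work with the 9 targets were described from lists of 137 genes, 119 of which were tested by their brightest probe. Of these, 1 rose, 2 fell and 116 did not pass, and the median change was 0.02. Over all 25762 genes and unnamed transcripts, each by its brightest probe, 1.34% passed, 0.609% higher and 0.73% lower, with a median of 0.08. No list gene passed with slide as a fixed block, with no signal filter, or without any 1 of the siGFP arrays, and none without circHIPK3 siRNA replicate 2 or replicate 3.

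In hedgehog signalling, the pathway of Smo, none of 18 tested genes passed, with a median of 0.05. The ligand-binding inhibitor gene Hhip, itself a pathway target, gave 0.81 ± 0.22 (SE, adjusted p = 0.113), with -5.54, -5.21 and -4.61 after circHIPK3 siRNA against -6.00, -5.92 and -5.86 after siGFP. Its change was 0.33 with normexp and 0.39 with slide as a fixed block, and without circHIPK3 siRNA replicate 1 it passed at 1.02 (limma adjusted p = 0.0362). Gli3, a transcription factor at the end of the pathway, was well above background on all 3 circHIPK3 siRNA arrays and on no siGFP array, so it too was tested only through the group where it was higher. With scaling to the 75th percentile, its circHIPK3 siRNA mean was 1.39-fold a siGFP floor, the average of each array's lowest well-above-background signal. A probe that is not well above background can read above that floor, so no least fold follows. Its limma adjusted p of 0.115 rests on siGFP values none of which was well above background. Its change with normexp was 0.20 on the log2 scale. Both genes are at the dim end of the arrays, like Smo probe 2. Gli1 and Gli2, the other factors of that family, were not tested because of low signal.

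Among 17 tested semaphorin, plexin and vascular endothelial growth factor genes around Nrp1, 1 fell and none rose, with a median of 0.02. Plxna3, which encodes a plexin that binds semaphorins together with neuropilins, had -3.13, -2.88 and -3.27 after circHIPK3 siRNA, against -2.25, -2.33 and -2.15 after siGFP. All 3 circHIPK3 siRNA arrays lay below every siGFP array. It fell by 0.85 ± 0.13 (SE) on the log2 scale, with an adjusted p of 0.0368. The direction was kept under all 19 alternatives, in 9 of which it passed, and the adjusted p ranged between 0.0129 and 0.185.

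In the focal adhesion genes around Ptk2, none of 20 tested genes passed, with a median of 0.07. The talin gene Tln2 gave -0.51 ± 0.13 (SE, adjusted p = 0.0980) at its brighter probe but 0.18 ± 0.17 (SE) at its second. Vcl, which encodes the adhesion adaptor vinculin, gave 0.49 ± 0.15 and 0.45 ± 0.13 (SE) at its probes, with adjusted p = 0.148 and 0.118. Its groups did not overlap at either probe. In Met signalling, none of 12 tested genes passed, with a median of 0.0036. The ubiquitin ligase gene Cbl gave 0.42 ± 0.16 (SE, adjusted p = 0.192). Mst1, whose product is the ligand of the related receptor Mst1r, gave 0.32 ± 0.15 (SE, adjusted p = 0.261), with overlapping groups. Hgf, the ligand gene of Met, was not tested because of low signal.

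Among 18 tested regulators, relatives and substrates of Adam17, 1 rose and none fell, with a median of -0.02. Adam15, a metalloprotease gene of the same family, had 1.58, 1.54 and 1.45 after circHIPK3 siRNA, against 0.81, 0.81 and 1.06 after siGFP. The groups lay well apart. It rose by 0.63 ± 0.11 (SE), with an adjusted p of 0.0478, kept its direction under all 19 alternatives, passed in 8 of them and had adjusted p-values between 0.0106 and 0.250.

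Around Zeb2, none of 15 tested genes of epithelial to mesenchymal transition passed, with a median of 0.01. Grhl2, an epithelial transcription factor gene, gave 0.43 ± 0.11 (SE, adjusted p = 0.109) and Cldn4, a tight junction gene, gave 0.43 ± 0.12 (SE, adjusted p = 0.110). The groups of both did not overlap. Of the 15 genes, 4 were higher without overlap and 1 was lower, where the shares over all tested probes were 16.2% and 9.74%. Cdh2 and Ocln were the others higher without overlap, at 0.35 ± 0.11 and 0.33 ± 0.13 (SE). Cldn7 was lower without overlap, at -0.24 ± 0.11 (SE). The E-cadherin gene Cdh1 gave -0.23 ± 0.11 (SE, limma adjusted p = 0.277), with overlapping groups. Vim gave 0.48 ± 0.19 (SE), also with overlap. Grhl2 was above background on 2 of 3 siGFP arrays and was therefore tested only through the circHIPK3 siRNA group, and with normexp its change was 0.06 and that of Cldn4 was 0.13. Snai1 and Twist1, repressors that act beside Zeb2, were not tested because of low signal.

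Among the relatives and partners of Sox4, Runx2 and Mtdh, none of 10 tested genes passed, with a median of 0.15. Spp1, which encodes the matrix protein osteopontin, gave 0.47 ± 0.15 (SE, adjusted p = 0.147), and Runx3, a relative of Runx2, gave 0.32 ± 0.14 (SE, adjusted p = 0.245). The miR-338 host gene Aatk gave -0.07 ± 0.11 (SE, adjusted p = 0.720), with -1.60, -1.36 and -1.37 after circHIPK3 siRNA against -1.32, -1.43 and -1.36 after siGFP. Its groups overlapped, and the level of the host transcript does not report that of the microRNA.

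Of 8 further genes reported as miR-338-3p targets, 1 fell and 7 did not pass, with a median of -0.04. The gene that fell was Ssx2ip, which encodes a centrosome and adherens junction protein. It had 0.19, 0.31 and 0.19 after circHIPK3 siRNA, against 0.71, 0.91 and 0.77 after siGFP. All circHIPK3 siRNA arrays were lower, by 0.57 ± 0.10 (SE, adjusted p = 0.0494). The second Ssx2ip probe was also lower without overlap, at -0.38 ± 0.14 (SE), and did not pass (adjusted p = 0.184). Over 19 alternatives the adjusted p of the brighter probe ranged between 0.0142 and 0.254, and it passed in 6.

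**Figure D3:**
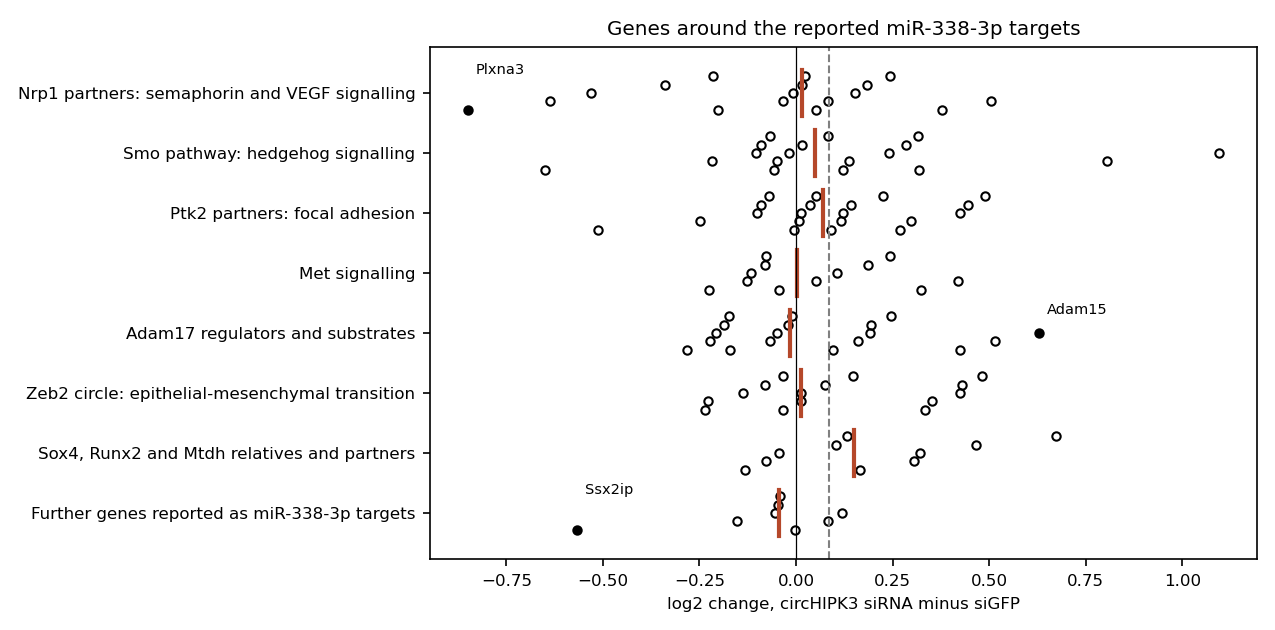
Log2 change, circHIPK3 siRNA minus siGFP, of each tested gene in the lists around the reported targets, each by its brightest probe. Filled points passed the adjusted threshold (Plxna3 and Ssx2ip lower, Adam15 higher), open points did not, red bars are list medians, and the dashed line is the median of all genes, 0.08. The medians of the 8 lists drawn, which leave out Aatk, lie between -0.04 and 0.15.

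The members with the most scatter over the 6 arrays, by their brightest probe, were Smo, Met and Zeb2, with an SD of 0.56, 0.35 and 0.31. Among 17142 other genes with a symbol, those with the most similar pattern over the 6 arrays were Marchf1 (Pearson r = 0.9996) and E330020D12Rik (r = 0.9977) for Smo. For Met they were A430088P11Rik (r = 0.9988) and Bcl2 (r = 0.998), and for Zeb2 Actr6 (r = 0.996) and Mtf2 (r = 0.993). With 6 points and this many genes compared, these values are a description only. Marchf1 repeated the array order of the brighter Smo probe, with -0.58, -0.16 and 0.64 after circHIPK3 siRNA against -0.02, 0.21 and -0.94 after siGFP. Its change was 0.22 ± 0.38 (SE). Changes of these 6 genes lay between 0.22 and 0.37, and none passed limma's test, with adjusted p-values between 0.288 and 0.765.

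**Figure D4:**
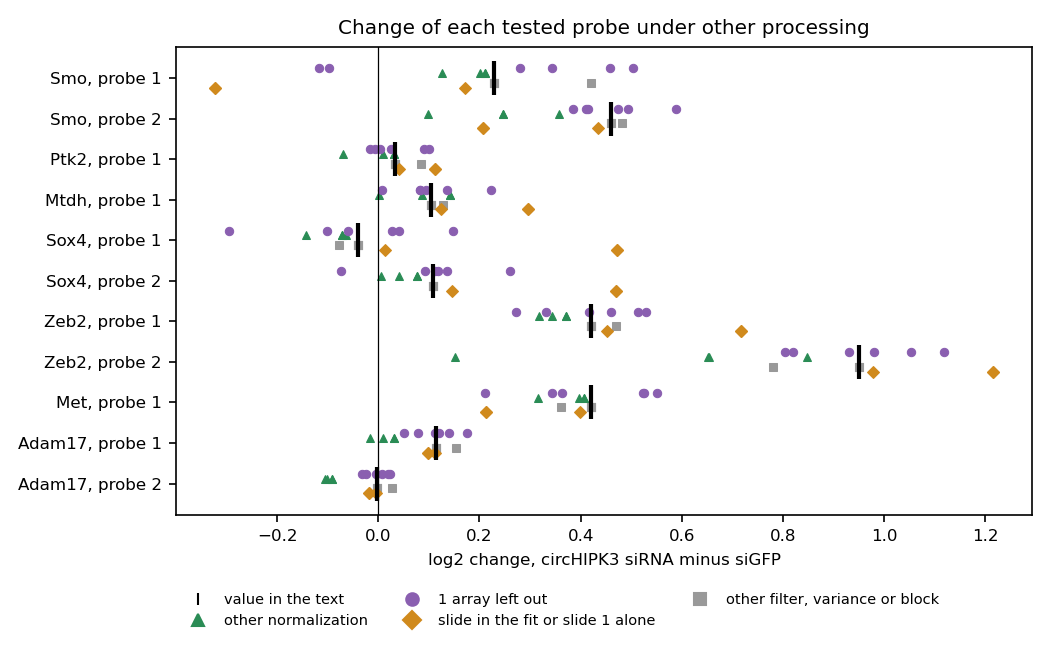
Log2 change, circHIPK3 siRNA minus siGFP, of each tested probe under the processing used in the text (black bar) and under each alternative (symbols by kind). Both Zeb2 probes, Met, Mtdh and Smo probe 2 stay to the right of 0 throughout, and Zeb2 probe 2 runs between 0.15 with normexp and 1.22 on the first slide alone.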

How the data were processed

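Total RNA was labelled with Cy3 and hybridised to single-colour Agilent mouse arrays, as the labels' protocols state. The scanner files deposited hold a background-subtracted intensity per spot which, per the file headers, Agilent's Feature Extraction 11.0.1.1 produced. A deposited table of log2 values of the same arrays served as an alternative. Its column medians were all 9.80, its columns correlated at 0.9999 or above with the log2 intensity of the same array, and its normalization is not given in the sources used here.

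Intensities were scaled to each array's 75th percentile over 43020 non-control spots and log2-transformed, outlier spots were dropped and a probe's spots averaged. Probes that stood well above background on every array of either group, 31362 in all, entered limma 3.58.1 (R 4.3.3, group as the only term, Benjamini-Hochberg over all tested probes). The fit was also run on simulated arrays with independent noise and no slide effect, which cannot show how it behaves with this slide layout. No tested probe was saturated. Accessions matched a RefSeq table of GRCm38.p6 for 27234 probes. Probe 1 is a gene's brighter probe. Named list genes were up to 4 called per list, otherwise the 2 with the smallest p, and likeness was given for the 3 members with the largest SD. Alternatives changed the scaling, background correction, signal filter, variance model, blocks for slide or replicate number, and the arrays included. Members and lists were chosen with earlier results of these data known.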

Additional observations from a re-analysis of the deposited data

How the results depend on the processing

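Of the 11 target probes, none passed under any of the processing alternatives, and the count was 0 to 1 on leaving out single arrays, the 1 being Smo probe 2 without circHIPK3 siRNA replicate 1. The count of all probes called, 415, was 784 with median scaling, 267 in the value table, 0 with no signal filter, 776 with trend and robust variance, 1435 with array weights, 215 with slide as a random block, 1 with slide as a fixed block, 2 on the first slide alone, and 0 to 1708 on leaving out single arrays, 1708 being without circHIPK3 siRNA replicate 1. The 3 list genes called became 1 in the value table and with slide as a random block, 5 with array weights, 0 with no signal filter, slide as a fixed block or the first slide alone, and 0 to 5 on leaving out single arrays. With the replicate number as a block, 0 probes and 0 list genes passed. Deviations of same-numbered samples correlated at -0.0043, 0.27 and -0.11, so the numbers were not taken to pair the samples. The 3 target probes without overlap became 2 with median scaling, 1 with quantile normalization and in the value table, and 0 with normexp. With normexp the difference between probes turned to -0.10 for Smo and -0.19 for Zeb2, and Adam17 probe 1 to -0.017. Other changes of sign were all among changes that had not passed. These were Smo probe 1 at -0.32 under the slide block and on the first slide alone, Ptk2 at -0.070 with median scaling, Sox4 probe 1 at 0.47 under the slide block and on the first slide alone and 0.013 with slide as a random block, and Adam17 probe 2 at 0.028 with array weights. On leaving out single arrays the ranges that crossed 0 were -0.12 to 0.50 for Smo probe 1, -0.016 to 0.10 for Ptk2, -0.30 to 0.15 and -0.073 to 0.26 for Sox4 probes 1 and 2, -0.032 to 0.023 for Adam17 probe 2 and -0.11 to 0.0054 for Aatk. The cause of these moves was not tested. Normexp was run on the spots' median foreground and followed by quantile normalization, so its values reflect both steps. Zeb2 probe 2, Gli3 and Grhl2 were not well above background on every array. Smo probe 2 was, though it lay among the dimmest 7840 tested probes. The signal filter kept Nrp1 and Runx2 out of the tests.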
